A study of Homo sapiens with 6 samples.

Results

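The genes described here are ANKRD1 with 9 genes of the YAP and TEAD circuit, CCN1, CCN2, AMOTL1, AMOTL2, LATS2, AJUBA, TEAD1, YAP1 and WWTR1, which are 10 of the 62754 genes counted. They were selected on the measured difference between the same groups that are compared below, in which the low level of ANKRD1 was already known. Their levels and differences are therefore given as a description without a test. All 10 had at least 10 counts in all 6 libraries, none was low by the limit of 10 counts in 3 libraries, and all 10 were among the 19874 genes that passed the filter on low counts.

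HK-2 is an established cell line from human proximal tubule, and all of its libraries came from cells exposed to Cisplatin, a platinum drug that damages DNA and injures the tubule. In CP+siNC, the cells also received a negative control siRNA, and in CP+siNAT10 they received an siRNA against NAT10, an enzyme that acetylates cytidine in RNA. There were 3 libraries in each group, and the comparison asks how knockdown of NAT10 alters gene expression in cells under Cisplatin. Dose and time are not in the labels, and although the published methods name 1 dose and 1 duration of Cisplatin chosen for work in these cells, they do not repeat them for the sequenced libraries. The labels also do not say whether the libraries of a group came from separate cultures, so that p-values measure the spread between these libraries, which may be technical. No cells without Cisplatin were included in the comparison, and a response to the drug itself cannot be read from it.

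In the Hippo pathway, the kinases MST1 and MST2 activate LATS1 and LATS2, which phosphorylate YAP (gene YAP1) and its paralog TAZ (gene WWTR1) and keep them in the cytoplasm. When the kinases are quiet, as in spread cells on a stiff matrix, YAP and TAZ enter the nucleus and act on DNA through the TEAD factors. ANKRD1, CCN1 and CCN2 are widely used readouts of this activity, and in the kidney the pathway is known for its part in tubule development, repair and fibrosis.

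The total counts were 19321665, 21602988 and 19464027 in the CP+siNC libraries and 20793709, 21531774 and 25192736 in the CP+siNAT10 libraries. Levels are given as CPM, the count of a gene per 1000000 counts of the library, after TMM scaling, a correction for differences in composition between libraries. The error of a log2 fold change is its standard error (SE). The targeted gene, NAT10, was measured at 75.8, 71.4 and 73.2 CPM in CP+siNC and at 41.3, 40.5 and 42.4 CPM in CP+siNAT10. All 3 knockdown libraries lay below all 3 controls, and NAT10 fell by 0.82 on the log2 scale (SE 0.0426), with an adjusted p of 2.79e-15 in the quasi-likelihood test of edgeR, adjusted over all tested genes by the Benjamini-Hochberg method.

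Markers were examined to check the cell type. Keratin genes of epithelia were abundant, and the highest of the 7 epithelial and kidney tubule markers was KRT8, at a mean of 1452 CPM. PAX8, a transcription factor of the kidney epithelium, was at 31.4 ± 1.34 CPM in CP+siNC and 47.2 ± 4.48 CPM in CP+siNAT10 (n = 3 each, SD). Of the 6 genes of this list that were tested, PAX8 and EPCAM rose, with log2 fold changes of 0.59 and 0.31, and KRT18 fell by 0.36, from 346 to 269 CPM. KRT8, KRT19 and PAX2 did not pass the test, at 1455 against 1450.0, 177 against 176 and 0.638 against 0.826 CPM. The part of these differences in the results below was not tested. Genes that define a differentiated proximal tubule were mostly absent, since 6 of 8 did not exceed 1 CPM on average over the 6 libraries, including the endocytic receptors LRP2 and CUBN, and SLC22A6, an organic anion transporter, had no count in any library. Of these 6 genes only AQP1 was tested, and it did not pass, at 1.03 CPM in CP+siNC and 0.694 CPM in CP+siNAT10. The other 2 were GGT1, a brush border enzyme, which fell from 33.2 to 27.4 CPM (log2 fold change -0.28), and SLC5A2, a glucose transporter, which rose from 9.30 to 11.5 CPM (0.31). CDH1, the gene of E-cadherin, was below 1 CPM as well. The label of proximal tubule cells therefore rests on the origin of the line, and the markers show keratin genes of epithelia and PAX8, while most other kidney markers were low. Of the markers of other cells, all 4 endothelial genes were under 1 CPM, 4 of 6 fibroblast and muscle genes were under 1 CPM with LUM highest at 11.3 CPM, and of 4 immune genes only CD68, a lysosomal gene that many cells express, was abundant, at a mean of 239.5 CPM. The summed level of the immune genes was 210, 199 and 216 CPM in CP+siNC and 289, 266 and 269 CPM in CP+siNAT10, and its part in the results below was not tested. Of the 3 immune genes that were tested, CD68 and PTPRC rose, with log2 fold changes of 0.40 and 0.96, and CD14 did not pass. PTPRC, the pan-leukocyte marker, and CD3E of T cells were under 1 CPM on average. The call of PTPRC (edgeR adjusted p = 0.0411) was lost under 5 alternatives, and without CP+siNAT10 replicate 2, the library with its highest level at 1.33 CPM, its log2 fold change was 0.46 with an edgeR adjusted p of 0.404. The values are for bulk RNA, in which fewer cells that express a gene and less RNA per cell cannot be told apart.

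Among the 10 genes, 7 lay lower in every CP+siNAT10 library than in any CP+siNC library, 1 lay higher in every one, and in 2 the groups overlapped. Over all 19874 tested genes, the groups did not overlap with lower values in 25.7% and with higher values in 25.7%. At an adjusted p under 0.05 in the test across all genes, 22.3% of the genes were lower, 21.8% were higher and 44.1% passed in either direction. Since the 10 genes were chosen from this contrast, nothing is read from their count against these shares. Their median log2 fold change was -0.41, beside 0.0070 over all tested genes, of which the 5th and 95th percentiles were -0.65 and 0.59.

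**Figure D1:**
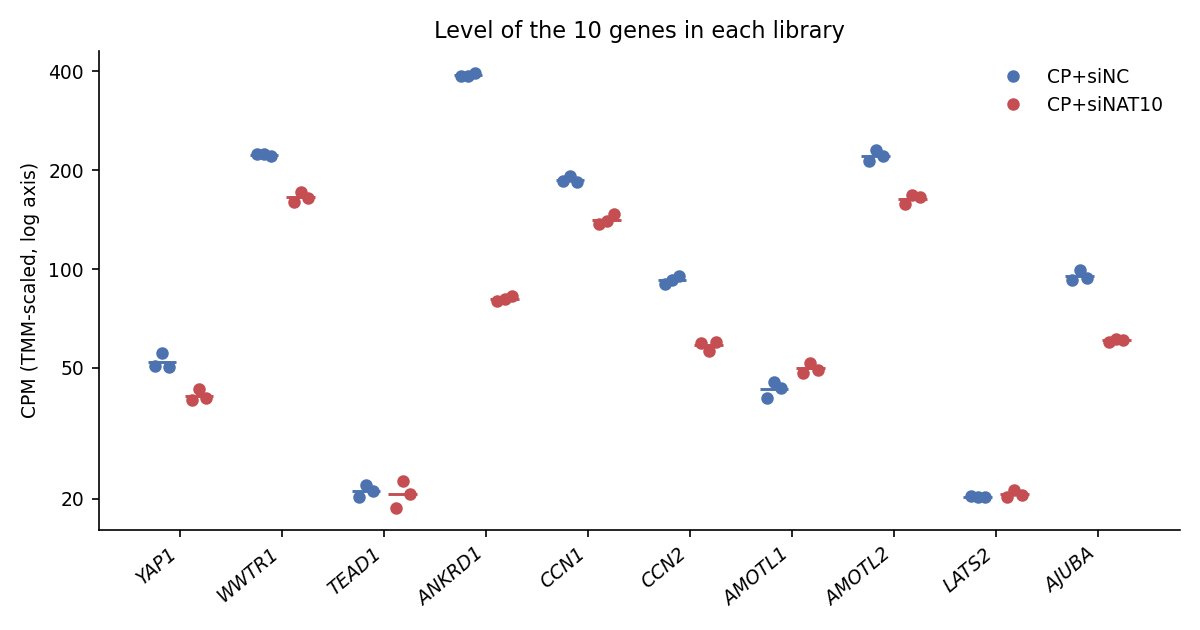
Level of the 10 genes in each library, in CPM on a log axis, with a point for each of the 3 libraries of a group and a line at the group mean. ANKRD1 lay near 389 CPM in CP+siNC and near 81.2 CPM in CP+siNAT10, and the groups overlapped for TEAD1 and LATS2.

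The effectors of the pathway come first. YAP1, the gene of the coactivator YAP, was measured at 50.6, 55.5 and 50.4 CPM in CP+siNC and at 39.9, 43.1 and 40.4 CPM in CP+siNAT10. Every knockdown library was below every control, and the gap between the groups exceeded the spread within either. The mean in CP+siNAT10 was 78.8% of that in CP+siNC, a difference of -0.35 on the log2 scale (SE 0.0483). WWTR1, which encodes TAZ, was at 223, 224 and 221 CPM in CP+siNC and at 160.1, 172 and 165 CPM in CP+siNAT10. The controls were close to each other, the knockdown libraries were all lower, and the difference was -0.43 on the log2 scale (SE 0.0339). TEAD1, a DNA-binding partner of both, was at 20.3, 22.05 and 21.2 CPM in CP+siNC and at 18.8, 22.7 and 20.7 CPM in CP+siNAT10. Here the groups overlapped, with the lowest and the highest of the 6 values both in CP+siNAT10, and the difference of -0.03 on the log2 scale was smaller than its SE of 0.0661.

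The target genes showed the widest range of differences. ANKRD1 encodes an ankyrin repeat protein of the nucleus and the sarcomere that is induced by stretch and injury. Its level was 387, 385 and 396 CPM in the CP+siNC libraries, from 7291, 8247 and 7627 counts, and 80.0, 80.9 and 82.8 CPM in the CP+siNAT10 libraries, from 1685, 1768 and 2098 counts. The values of a group lay within a few percent of each other, and the highest knockdown library was far below the lowest control. The mean was 389 ± 5.74 CPM in CP+siNC and 81.2 ± 1.396 CPM in CP+siNAT10 (n = 3 each, SD), so that 20.9% of the control level remained. This was a 4.79-fold lower level and a log2 fold change of -2.26 (SE 0.0347), the fifth lowest of the 19874 tested genes.

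CCN1 and CCN2 encode secreted proteins of the matrix that bind integrins, and CCN2 is best known as a factor of fibrosis. CCN1 was at 185, 192 and 184 CPM in CP+siNC and at 137, 139.8 and 147 CPM in CP+siNAT10. CCN2 was at 89.8, 92.4 and 95.1 CPM in CP+siNC and at 59.6, 56.5 and 60.1 CPM in CP+siNAT10. For both genes, all knockdown libraries lay below all controls, but a larger part of the control level remained than for ANKRD1. It was 75.7% for CCN1, a log2 fold change of -0.40 (SE 0.0354), and 63.5% for CCN2, a log2 fold change of -0.65 (SE 0.0400). LINC01013, on the opposite strand, overlaps CCN2 and had a mean of 26.5 CPM, and whether strand was used in counting is not given in the sources used here, so that reads of the pair cannot be told apart. The same limit holds for YAP1, with ENSG00000277459 at 10.9 CPM and ENSG00000254422 at 4.41 CPM on the opposite strand, and for WWTR1, with WWTR1-AS1 at 4.10 CPM. AJUBA overlaps ENSG00000259132 on its own strand, at 7.72 CPM, and the genes that overlap AMOTL1 and AMOTL2 were under 1 CPM.

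The remaining genes act back on the pathway. Angiomotin-like proteins bind YAP and TAZ at cell junctions, and AMOTL2 is itself induced by YAP. AMOTL2 was at 213, 229.9 and 220.4 CPM in CP+siNC and at 158, 167 and 165 CPM in CP+siNAT10. AMOTL1 was at 40.5, 45.4 and 43.5 CPM in CP+siNC and at 48.4, 51.8 and 49.5 CPM in CP+siNAT10. These paralogs lay on opposite sides, AMOTL2 lower in all 3 knockdown libraries and AMOTL1 higher in all 3. Their log2 fold changes were -0.44 (SE 0.0355) and 0.21 (SE 0.0477), and AMOTL1 was the single gene of the 10 with a higher level in every CP+siNAT10 library.

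AJUBA, a LIM protein that restrains LATS kinases at junctions under tension, was at 92.4, 99.0 and 93.9 CPM in CP+siNC and at 60.04, 61.4 and 60.7 CPM in CP+siNAT10. The knockdown libraries were tightly grouped and all below the controls, with 63.8% of the control level and a log2 fold change of -0.65 (SE 0.0393). LATS2, the kinase that phosphorylates YAP and is also induced by it, was at 20.3 CPM in all 3 CP+siNC libraries and at 20.3, 21.3 and 20.6 CPM in CP+siNAT10. The groups of LATS2 overlapped, and its log2 fold change of 0.03 was within the SE of 0.0585. The counts behind LATS2 and TEAD1, 382 to 524 per library, were the lowest of the 10 genes, and their standard errors were the largest.

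**Figure D2:**
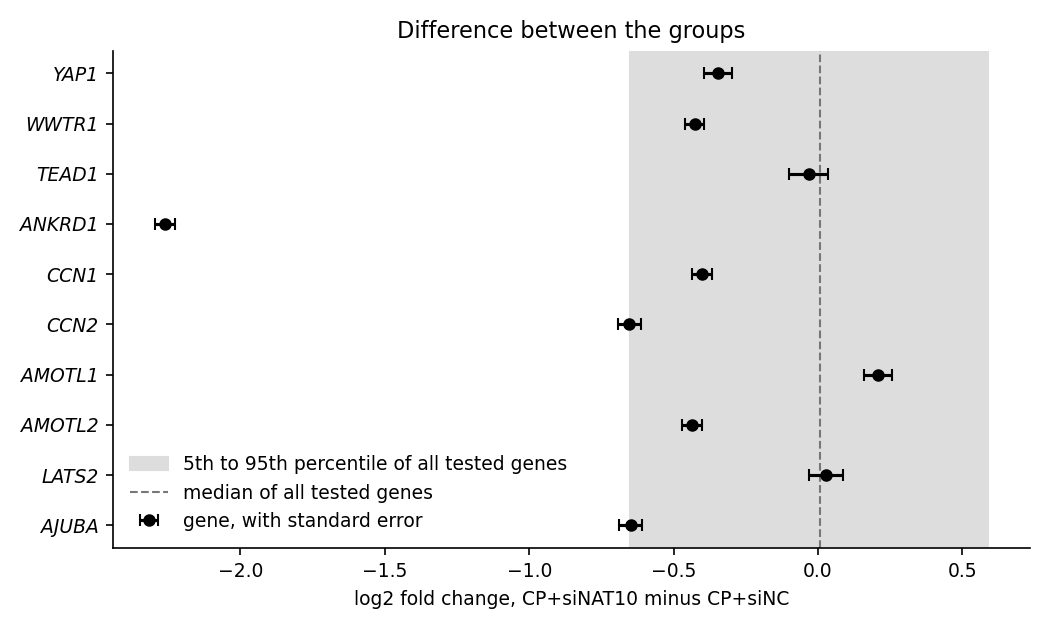
Log2 fold change of each of the 10 genes between CP+siNAT10 and CP+siNC, with its standard error as a bar, beside the median (dashed line) and the 5th to 95th percentiles (grey band) of all tested genes. ANKRD1 lay at -2.26, far outside the band, CCN2 and AJUBA lay at its lower edge, and the other genes lay inside it.

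Levels of different genes were compared per kilobase of the length that the deposited table gives (RPKM). In CP+siNC, ANKRD1 was the most abundant at 218 ± 3.21 RPKM, followed by CCN1 at 50.5 ± 1.17, CCN2 at 39.5 ± 1.13, AMOTL2 at 34.1 ± 1.27, WWTR1 at 26.6 ± 0.202 and AJUBA at 16.2 ± 0.589 RPKM (SD, n = 3). YAP1 was at 8.27 ± 0.460, AMOTL1 at 4.30 ± 0.245, LATS2 at 3.62 ± 0.00342 and TEAD1 at 1.98 ± 0.0823 RPKM. Neighbours in this order were separated by more than their spread. In CP+siNAT10, ANKRD1 at 45.4 ± 0.780 RPKM still came first, and CCN1 followed at 38.2 ± 1.47 RPKM. CCN2 at 25.1 ± 0.831 and AMOTL2 at 25.2 ± 0.774 RPKM did not differ beyond their spread there by these lengths, whereas by the GENCODE 29 exon lengths used below they were at 25.1 and 27.3 RPKM, so that their order depends on the length. WWTR1 was more abundant than YAP1 per length in both groups, at 19.8 ± 0.688 against 6.52 ± 0.274 RPKM in CP+siNAT10. For CCN1 the table gives a length of 3698 bases, above the span of 3170 bases between its start and end, and with the exon length of 2455 bases in GENCODE 29, chosen after seeing the data, its levels were 76.1 and 57.6 RPKM. With that length CCN1 lay above ANKRD1 in CP+siNAT10, where ANKRD1 was at 41.0 RPKM by its own GENCODE 29 length.

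The 10 genes lie on chromosomes 1, 3, 6, 10, 11, 13 and 14, and those that share a chromosome are not adjacent. ANKRD1 (ENSG00000148677) is at chr10:90912096-90921087 on the minus strand, CCN1 (ENSG00000142871) at chr1:85580761-85583930 on the plus strand, and CCN2 (ENSG00000118523) at chr6:131948176-131951372 on the minus strand. YAP1 (ENSG00000137693) is at chr11:102110447-102230579 on the plus strand and WWTR1 (ENSG00000018408) at chr3:149517235-149736714 on the minus strand. These positions are on GRCh38 as the table gives them, and 99.98% of the tested genes found in GENCODE 29 overlapped their position there.

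The promoters were searched for CATTCC, the core bound by TEAD factors, or its complement GGAATG, in the 250 bases before and 50 bases after each start of transcription, in sequences from RefSeq (GRCh38.p14). Entries matched 8 of the 10 genes, without CCN1 and TEAD1, with 11 promoters in all, of which 6 (54.5%), each of another gene, held the motif. Of all 35116 promoters, 14.03% held the motif at least 1 time, 1.37% at least 2 times and 0.128% at least 3 times. For the 16750 promoters of tested genes, these shares were 11.6%, 0.949% and 0.0776%. In the pathway lists described below, the share with the motif ran from 6.67% of 15 promoters (retention and turnover) to 50% of 4 promoters (CCN and CARP relatives). It was 38.5% of 13 promoters in the YAP and TAZ target signature. ANKRD1 has 2 copies and CCN2 has 3, all as GGAATG. The promoter of ANKRD1 (chr10:90921038-90921337, minus strand) and that of CCN2 (chr6:131951323-131951622, minus strand) are shown because these targets carry more copies than the other genes. Both are written in the direction of the gene with the motif in capitals, and their last 50 bases follow the start of transcription.
ANKRD1: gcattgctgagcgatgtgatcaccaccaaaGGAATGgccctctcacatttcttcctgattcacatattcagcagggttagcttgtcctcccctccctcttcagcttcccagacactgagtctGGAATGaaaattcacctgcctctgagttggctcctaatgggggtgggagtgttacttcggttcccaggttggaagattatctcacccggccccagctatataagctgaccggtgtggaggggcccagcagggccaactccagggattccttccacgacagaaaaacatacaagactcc
CCN2: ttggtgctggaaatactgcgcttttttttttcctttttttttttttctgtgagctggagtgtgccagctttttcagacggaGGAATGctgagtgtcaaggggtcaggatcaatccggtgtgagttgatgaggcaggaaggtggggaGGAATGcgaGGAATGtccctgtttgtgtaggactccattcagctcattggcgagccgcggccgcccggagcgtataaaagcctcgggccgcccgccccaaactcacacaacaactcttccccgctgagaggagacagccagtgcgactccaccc

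The copies in ANKRD1 begin 220 and 128 bases before the start of transcription. Those in CCN2 begin 169, 104 and 95 bases before it, with the latter pair close together. YAP1, AMOTL2, AJUBA and LATS2 have 1 copy each, which begins 162, 69 and 59 bases before the start in YAP1, AMOTL2 and AJUBA and at base 10 of the transcript in LATS2. For AMOTL2 and AJUBA, the copy is at 1 of 2 annotated starts, in each case the one further inside the gene. For AMOTL1 and WWTR1, the entries are at starts inside the gene, 1 and 2 in number, and these windows do not hold the letters, whereas the windows at their outermost starts were not searched. The surroundings of the copies in YAP1 (chr11:102110268-102110307, plus strand), AMOTL2 (chr3:134374494-134374533, minus strand) and AJUBA (chr14:22976879-22976918, minus strand) are shown over 40 bases to compare the bases beside the motif.
YAP1: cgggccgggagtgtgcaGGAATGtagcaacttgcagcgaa
AMOTL2: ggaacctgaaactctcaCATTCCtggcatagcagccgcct
AJUBA: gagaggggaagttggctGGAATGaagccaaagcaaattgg

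A match is a description, not a site or a cause, and no match says only that these letters are not in this window. Over the tested genes with a promoter in the table, the median log2 fold change was 0.02 for the 9997 genes without a copy, 0.0099 for the 1612 genes with 1 copy and -0.02 for the 153 genes with 2 or more, and the difference was not tested.

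**Figure D3:**
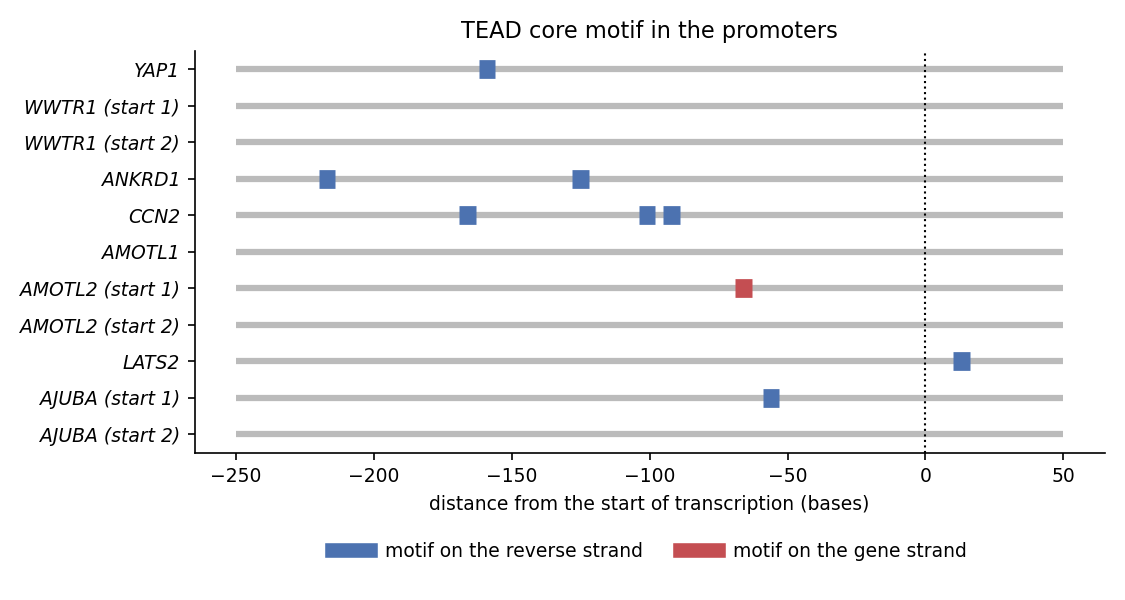
Position of the TEAD core motif in the promoters of 8 of the 10 genes, by distance in bases from the start of transcription (dotted line), with the grey line marking the 300 bases searched and the colour the strand. ANKRD1 has 2 copies and CCN2 has 3, all before the start, and genes with several entries have a line for each. The lines of AMOTL1 and WWTR1 are at starts inside the gene.

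In the 3′ UTR, the heptamer GACTATC was counted, as were the overlapping heptamer ACTATCA and the separate heptamer CATATTC, since an earlier search of the same fold changes had picked them among genes lower in CP+siNAT10. The longest annotated 3′ UTR in GENCODE 29 holds at least 1 of them in 18.7% of 13327 protein-coding genes. Of the 10 genes, AMOTL1, LATS2, AJUBA and TEAD1 carry 1 or more, and ANKRD1, CCN1, CCN2, AMOTL2, YAP1 and WWTR1 carry none. In the lists described below, 4 of the 13 often cited targets carry 1 or more, namely THBS1, EREG, INHBA and DLC1. So do 7 of the 23 tested Hippo kinases and scaffolds, MOB1B, NF2, WWC3, FRMD6, TAOK3, WTIP and STRN. Among the 17 signature genes there are 3 carriers, ASAP1, TGFB2 and RBMS3. The list of retention and turnover has 2 carriers among 13 genes, and that of SRF and MRTF has 2 among 14. The tested TEAD and VGLL genes and the tested CCN and CARP relatives include no carrier. As the heptamers were chosen on these values, carriers and other genes were not compared, and any part of the siRNA sequence in these differences was not tested.

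The genes most like ANKRD1 over the 6 libraries were sought among 12303 genes whose mean reached 5 CPM. Likeness was the distance between log2 CPM values, each gene first centred on its mean in CP+siNC. The nearest were NUDT11 (distance 0.947), SLC4A8 (0.988), IL23A (1.12), CCNG1 (1.14) and ARMCX1 (1.26). All of them changed less than ANKRD1, from a log2 fold change of -1.72 for NUDT11 to -1.54 for ARMCX1, and none belongs to the lists of the pathway below. At 16.1 to 38.8 CPM in CP+siNC, they also had far fewer counts than ANKRD1.

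Further genes of the pathway were taken from lists written from general knowledge, and they were tested together with all other genes. The lists are not independent of these data, and their counts are given beside the share of all tested genes that passed, 22.3% lower and 21.8% higher. The first list holds 17 more genes of a YAP and TAZ target signature. All 17 were tested, of which 9 fell (52.9%), 4 rose (23.5%) and 4 did not pass, with a median log2 fold change of -0.12. AXL, a receptor tyrosine kinase, went from 209 ± 5.94 to 128 ± 1.19 CPM (n = 3 each, SD), and its difference on the log2 scale was -0.71 (SE 0.0339, edgeR adjusted p = 6.15e-16). FJX1 and NUAK2, a kinase that feeds back on LATS, fell by 0.65 and 0.54 on the log2 scale. GADD45A, which responds to DNA damage, fell by 0.53, CCDC80 by 0.45, PTPN14, a phosphatase that binds YAP, by 0.39, NT5E by 0.34, CRIM1 by 0.24 and ASAP1 by 0.12, the last of which was lost under 6 alternatives. In the other direction, IGFBP3 rose from 63.1 ± 3.43 to 94.5 ± 4.09 CPM (n = 3 each, SD), and its difference on the log2 scale was 0.58 (SE 0.0432, edgeR adjusted p = 6.73e-12). DOCK5 had a log2 fold change of 0.34, TGFB2 of 0.19 and MYOF of 0.19. F3, ARHGEF17, RBMS3 and FOXF2 did not pass, and the last pair were under 1 CPM in both groups.

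In a second list of 13 often cited targets, 5 fell (38.5%) and 5 rose (38.5%), with a median of 0.06. THBS1, a matrix glycoprotein, went from 135 ± 2.54 to 62.5 ± 2.59 CPM (n = 3 each, SD), and its difference on the log2 scale was -1.11 (SE 0.0384, edgeR adjusted p = 4.85e-19). BIRC5, DLC1 and EDN1 fell by 0.28, 0.43 and 0.46. INHBA, a subunit of activin, rose from 596 ± 1.99 to 1042 ± 25.7 CPM (n = 3 each, SD), and its difference on the log2 scale was 0.81 (SE 0.0327, edgeR adjusted p = 1.53e-17). AREG and EREG, ligands of the EGF receptor, rose with log2 fold changes of 0.71 and 0.54, and MYC with 0.20. Among the targets outside the 10 genes, falls as large as that of ANKRD1 were not seen, and that of THBS1 was the largest in these lists.

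Upstream of YAP and TAZ, 23 of 25 listed Hippo kinases and scaffolds were tested, of which 8 fell (34.8%) and 5 rose (21.7%), with a median of -0.07. FRMD6, a FERM domain protein that activates the kinases, went from 76.6 ± 3.75 to 44.0 ± 0.226 CPM (n = 3 each, SD), and its difference on the log2 scale was -0.80 (SE 0.0433, edgeR adjusted p = 7.29e-15). MOB1A and MOB1B, cofactors of LATS, fell by 0.37 and 0.39, and SIKE1, a component of the STRIPAK phosphatase complex, by 0.32. WWC2, TAOK3, STK3 (the gene of MST2) and STRN4 rose, with log2 fold changes of 0.32, 0.46, 0.48 and 0.16. WWC1, named after its values were seen, is among the 8 that fell, although its groups overlapped, and lost its call under 6 alternatives. Of the paralogs of the 10 genes, LATS1, LIMD1 and WTIP did not pass, with log2 fold changes of -0.07, 0.06 and -0.12, and AMOT was too low to be tested.

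Of the TEAD factors, TEAD3 fell, with a log2 fold change of -0.24, whereas TEAD2 and TEAD4 rose with 0.24 and 0.53, beside TEAD1 at -0.03. VGLL4, a cofactor that competes with YAP for TEAD, did not pass at 0.17, and VGLL1, VGLL2 and VGLL3 were too low to be tested. With adjusted p from 1.32e-05 to 0.00306 in the edgeR test, the 3 changes were small beside that of ANKRD1. The CCN and CARP relatives of CCN1, CCN2 and ANKRD1 were mostly silent, since 4 of 6 were not tested. ANKRD23 and CCN3 were measured and both fell, by 0.33 and 0.26 on the log2 scale.

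For proteins that hold YAP and TAZ in the cytoplasm or mark them for degradation, all 13 listed genes were tested, of which 1 fell (7.69%) and 6 rose (46.2%), with a median of 0.06. The changes were small, with log2 fold changes of 0.28 for CUL1, a ubiquitin ligase scaffold, and 0.19, 0.18 and 0.16 for the 14-3-3 genes YWHAG, YWHAH and YWHAB, and YWHAQ fell by 0.12. YWHAE, named after its values were seen, is among the 6 and lost its call under 4 alternatives. SRF and its MRTF cofactors share many targets with YAP, and of 14 such genes 8 rose (57.1%) and 1 fell (7.14%), with a median of 0.09. SRF itself, FHL2, CNN1 and ACTB had log2 fold changes of 0.30, 0.30, 0.18 and 0.15, and CNN2 fell by 0.32. VCL and MRTFB, named after their values were seen, are among the 8 and lost their calls under 6 and 4 alternatives. The fall of YWHAQ was lost with library size scaling, where no gene of its list fell.

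**Figure D4:**
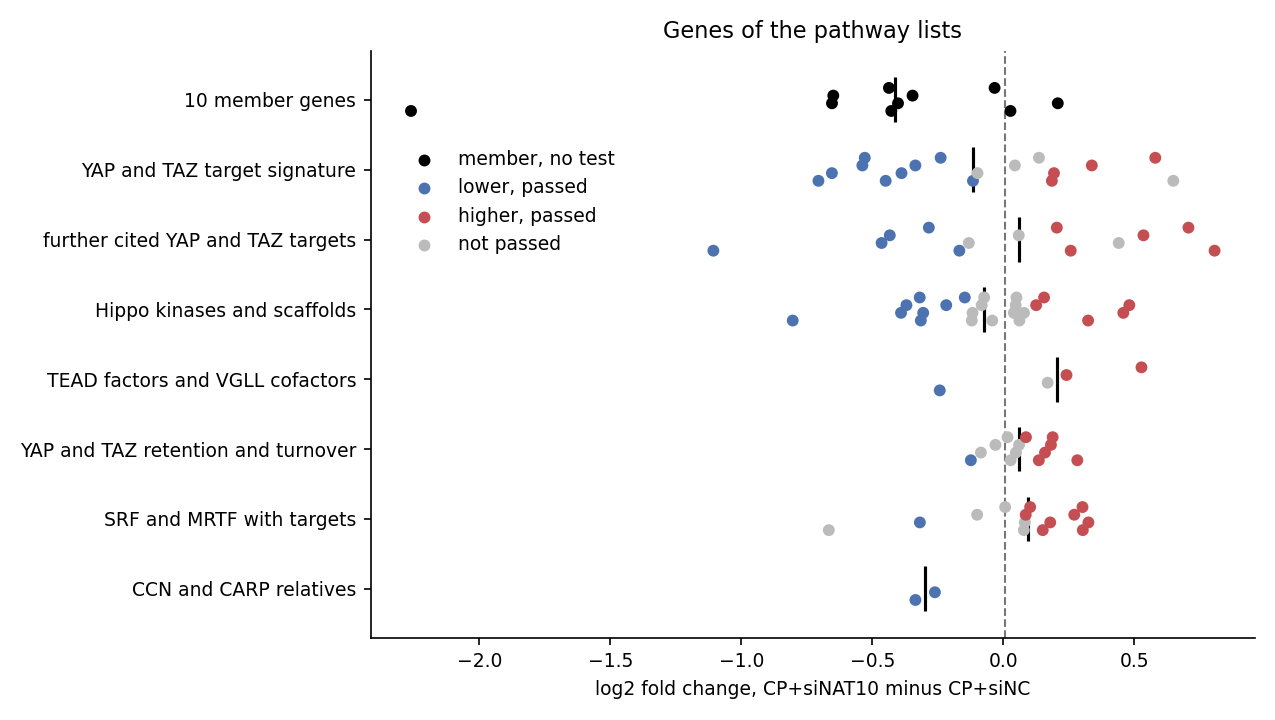
Log2 fold change between CP+siNAT10 and CP+siNC of the tested genes in each list described here, with a black bar at the median of the list and a dashed line at the median of all tested genes. The 10 genes are in black, without a test, and in the other lists genes that passed at an adjusted p of 0.05 are in blue (lower) or red (higher). ANKRD1 at -2.26 lies apart from the genes of all lists, and the medians of the other pathway lists, without the marker lists, with more than 4 tested genes lie between -0.12 and 0.09.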

How the data were processed

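RNA of 6 libraries of HK-2 cells was sequenced with a stranded mRNA kit. Per the labels and the submitters' processing notes, the authors used Trimmomatic 0.36, STAR 2.5.3a, featureCounts of Subread 1.5.1 and edgeR 3.12.1 with GRCh38, and deposited raw counts per gene without normalization. The kit adds molecular identifiers that serve to correct for duplicates, but whether the deposited counts were corrected in this way, which would change the spread between libraries, and whether strand was used are not given in the sources used here. From the deposited counts, low genes were removed by filterByExpr (set to a minimum count of 10 and a minimum total of 15), TMM factors were computed, and the groups were compared with edgeR 4.0.16 (quasi-likelihood test, R 4.3.3), with Benjamini-Hochberg adjustment over all 19874 tested genes and a threshold of 0.05. Standard errors are the log2 fold change over the square root of F. With 3 libraries against 3, an exact permutation test cannot give a p below 0.1. Programs were tested on simulated data. The alternatives were scaling by library size, upper quartile or RLE, no filter on low counts, a minimum of 50 counts in 3 libraries, the replicate number as a block, DESeq2 1.42.0, a limit of 1 on the log2 fold change and leaving out each library. The named genes were the 10 genes, NAT10, all genes of the signature, TEAD and CCN lists, up to 4 passing genes with the smallest p per direction in each other list, paralogs, and 5 genes most like ANKRD1. The 10 genes and the 8 lists were chosen with earlier results of these data known. The result of 1 list is not reported here. Sequences were searched with Python 3.11.15 and pandas 2.3.3.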

Additional observations from a re-analysis of the deposited data

How the results depend on the processing

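Over the 13 alternatives that give a fold change, all but the limit on its size, the log2 fold change of ANKRD1 lay between -2.27 and -2.22, and CCN1, CCN2, AMOTL1, AMOTL2, LATS2, AJUBA, YAP1 and WWTR1 kept their sign. TEAD1 did not: it was at 0.0047 with library size scaling and at 0.030 without CP+siNAT10 replicate 1, within a range of -0.099 to 0.030 over the left-out libraries, and the cause was not tested. LATS2, though its sign was kept, ranged from 0.0087 to 0.065 over these alternatives, with the highest value under library size scaling. With a limit of 1 on the log2 fold change, 275 genes were lower and 189 higher, since the limit removes smaller changes. In the retention and turnover list, 0 genes fell in edgeR with library size scaling, where YWHAQ had an adjusted p of 0.0591. Leaving out CP+siNC replicate 1, CP+siNAT10 replicate 1 or CP+siNAT10 replicate 3 ended the call of ASAP1. WWC1, VCL, MRTFB and YWHAE, named after their values were seen, are counted among the genes that passed in their lists and also lost their calls: WWC1 without CP+siNC replicate 2 or CP+siNAT10 replicates 1 or 2, VCL without CP+siNC replicates 1 or 3 or CP+siNAT10 replicates 1 or 2, MRTFB without CP+siNC replicates 1 or 3 or CP+siNAT10 replicate 2, and YWHAE without CP+siNC replicates 2 or 3 or CP+siNAT10 replicates 1 or 3. Over all alternatives in edgeR and DESeq2, the adjusted p reached 0.161 for ASAP1, 0.382 for WWC1, 0.147 for VCL, 0.0606 for MRTFB and 0.119 for YWHAE. PTPRC, a marker, lost its call in DESeq2, without any 1 CP+siNC library and without CP+siNAT10 replicate 2, and the other marker calls were kept. VCL and MRTFB belong to the SRF and MRTF list, in which 6 to 10 genes rose over the alternatives, with 6 in DESeq2 and 10 by library size. Over all genes, 3786 were lower and 5050 higher with library size scaling, and 4122 lower and 4360 higher with no filter on low counts, so that the larger side turned in both. With the replicate block, 4318 genes were lower and 4208 higher, against 4440 and 4331 without it. Libraries with the same number had correlations of 0.027, 0.097 and -0.20 in their deviations from the group means. Those with different numbers had correlations from -0.24 to 0.21. The labels do not say what libraries with the same number share, and these correlations cannot decide it. Exon lengths of GENCODE 29, chosen after seeing the data, moved 8 of 20 levels per length by more than 1 SD. LATS2 and TEAD1 had the fewest counts and the largest standard errors of the 10 genes, and the part of depth in these was not tested.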
